A study of Mus musculus with 24 samples.

Results

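The MHC class II genes and their transactivator were followed in the skin of C3H/HeJ mice with alopecia areata (AA), before and after treatment with 5 JAK inhibitors. The members were the rows of the raw read count table whose gene symbol is H2-Aa, H2-Ab1, H2-Eb1, Cd74, Ciita, H2-DMa, H2-DMb1, H2-Oa or H2-Ob. All 9 were found among 27179 genes, and all 9 passed the filter on low counts. There were 24 RNA-Seq libraries of whole skin from mice in which AA had been transferred, either by grafting alopecic skin or by transferring T cells. Of these, 6 were taken before treatment, 1 from each cohort (pretreatment). A further 3 each were taken after vehicle (labelled as control and as untreated), the JAK1-selective inhibitor INCB039110 (JAK1i), the JAK2-selective CEP-33779 (JAK2i), the JAK3-selective PF-06651600 (JAK3i), ruxolitinib, which inhibits JAK1 and JAK2, and tofacitinib, a pan-JAK inhibitor. Every group, vehicle included, is AA skin of the same inbred strain, and healthy skin was not analysed here. By the study's methods the drugs were given systemically from osmotic pumps, at a higher dose per body weight for JAK1i and JAK2i than for JAK3i, ruxolitinib and tofacitinib. The deposited labels describe an ointment instead, and the route cannot be settled from the files. Ages and sexes of the mice are not given in the sources used here, and the labels do not say whether the 3 libraries of a group came from separate animals, so that p-values measure only the spread between these samples.

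MHC class II molecules are pairs of an α and a β chain that hold peptides at the cell surface, where CD4+ T cells read them. Antigen-presenting cells (dendritic cells, Langerhans cells, macrophages and B cells) can carry them, and other cells, keratinocytes among them, can be made to carry them by IFN-γ. The invariant chain, Cd74, guides newly made chains to the endosome, where the peptide exchange factor DM loads peptide and DO restrains DM. CIITA, the product of Ciita, binds no DNA itself and is known as the master regulator of class II transcription. It acts through factors already sitting on the X and Y boxes of their promoters, and IFN-γ induces Ciita by way of JAK1, JAK2 and IRF1.

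Of the 9 genes, 7 lie on mouse chromosome 17 (coordinates on GRCm38). H2-Oa lies at chr17:34092379-34095234, H2-DMa at chr17:34119693-34139101, H2-DMb1 at chr17:34153191-34160229 and H2-Ob at chr17:34238905-34245908. The classical chains follow, with H2-Ab1 at chr17:34263227-34269418, H2-Aa at chr17:34282744-34287823 and H2-Eb1 at chr17:34305867-34316674. Ciita lies apart at chr16:10480014-10531064, and Cd74 lies at chr18:60803849-60812652. In the reference transcripts, most members share no 75-base stretch with another gene. In H2-DMb1, 19.1% of all 75-base stretches of the transcript also occur in its paralog H2-DMb2. In H2-Oa 17.3% also occur in the gene BC051537, and in the other 7 members none is shared. The reads were 75 bases long, so the values of H2-DMb1 and H2-Oa are uncertain to that extent. The reference strain carries another class II haplotype than these mice. Whether reads of any member were lost or misplaced for that reason was not tested. The levels of the members relative to each other, given below, carry the same limit.

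Libraries held between 17311913 and 21858670 counts each. JAK1i replicate 3 stood apart from the other JAK1i libraries: the chi-square per degree of freedom over genes was 236 and 206 against replicates 1 and 2, and 4.93 to 78.5 in every other pair of replicates, so no library was a repeat of another. A second deposited table, which holds 7 genes of a cytotoxic T cell score, differs from the count table on which library is which. Of its 24 columns, 18 matched the library of the same name and 6 matched another, all of them among JAK1i, JAK2i and JAK3i. Its column for JAK1i replicate 3 held the values of JAK3i replicate 1 in the count table, and its column for JAK3i replicate 1 held those of JAK1i replicate 3. Its columns for JAK1i replicate 2 and JAK2i replicate 1 were exchanged in the same way, as were those for JAK2i replicate 3 and JAK3i replicate 2. In the count table the JAK2i libraries differed from each other by a chi-square per degree of freedom of 10.7 to 18.6. Their Ciita stood at 123 to 142 CPM. Under the second table's names, JAK2i would hold Ciita at 6.10, 142 and 15.8 CPM. The first and last of these belong to JAK1i replicate 2 and JAK3i replicate 2 in the count table. JAK3i replicate 1 of the count table differed from JAK3i replicates 2 and 3 by a chi-square per degree of freedom of 20.8 and 23.9. The macrophage markers described below summed to 3165 to 3870 CPM in its JAK3i libraries. They summed to 174 and 183 CPM in its JAK1i replicates 1 and 2 and to 785 CPM in replicate 3. Groups here are those of the count table's header, each JAK1i library is shown apart, and results for JAK1i are given with and without replicate 3.

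The promoters are shown because Ciita's product reaches these genes through them. RefSeq's table for GRCm38.p6 gave a window of 300 bases, from 250 before to 50 after the start, for 6 of the 9 members. Of these, 5 held GNAAC, the core of the X box, followed on the same strand by GATTGG, the core of the Y box, with 24 to 27 bases between them. Capitals mark these letters.
H2-Aa: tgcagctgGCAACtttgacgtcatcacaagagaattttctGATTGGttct
H2-Eb1: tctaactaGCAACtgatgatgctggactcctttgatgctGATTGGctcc
H2-DMb1: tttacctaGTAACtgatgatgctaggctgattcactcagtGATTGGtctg
H2-Oa: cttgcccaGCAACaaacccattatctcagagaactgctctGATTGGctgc
H2-Ob: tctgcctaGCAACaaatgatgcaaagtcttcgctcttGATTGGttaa
These stretches lie at chr17:34287863-34287912 (minus strand), chr17:34305768-34305816, chr17:34153089-34153138, chr17:34092295-34092344 and chr17:34238810-34238856 (plus strand), in the order shown. The windows of H2-DMa did not hold the pair. Among 32851 promoters of the same length, 84.8% held GNAAC on either strand, 16.1% held GATTGG on either strand, and 1.21% held the pair with 15 to 35 bases between. The motifs and the spacing were chosen with these sequences in view. The reference is C57BL/6J, which carries another class II haplotype than C3H/HeJ.

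In vehicle-treated AA skin, Cd74 was the most abundant member per length of transcript, at 1320 ± 112 CPM per kb (counts divided by the library size, scaled to CPM, and by transcript length; SD, n = 3). The classical chains followed, with 598 ± 49.8 CPM per kb for H2-Aa, 495 ± 46.6 for H2-Ab1 and 425 ± 49.3 for H2-Eb1, and the libraries of the last pair overlapped. H2-DMb1 (46.4 ± 3.81 CPM per kb) and H2-DMa (32.0 ± 2.63) came next, then Ciita (20.9 ± 1.74), and the DO chains were lowest, with 5.24 ± 1.36 CPM per kb for H2-Ob and 3.25 ± 0.385 for H2-Oa. H2-Oa rested on 16 to 131 reads per library and is therefore the least precise of the 9.

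Vehicle did not move these genes detectably from their level before treatment, and neither did JAK2i. Against pretreatment, the 9 members in vehicle differed by −0.12 to 0.06 on the log2 scale, and none passed the test. That test, used throughout, was edgeR's quasi-likelihood test with Benjamini-Hochberg adjustment over 17770 genes, with a gene called at an adjusted p below 0.05. JAK2i against vehicle gave differences of 0.07 to 0.23 on the log2 scale, and all 9 members had an adjusted p of 1 in edgeR. DESeq2 also called 0 members, and it gave no adjusted p for Cd74. Across all genes 0% were called in either comparison, and 213 genes for JAK2i and 232 for vehicle had an unadjusted p below 0.05. The intervals were wide enough to hide a moderate change: for H2-Aa in JAK2i the 95% interval ran from −0.74 to 1.03 on the log2 scale, and for H2-DMb1, the most precise member, from −0.25 to 0.71. The vehicle libraries are shared by all comparisons with vehicle, and the pretreatment libraries by all comparisons with pretreatment.

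The classical chains, which form the I-A and I-E molecules, fell in JAK1i and in JAK3i. H2-Aa, the α chain of I-A, stood at 648, 637 and 739 CPM in vehicle and at 601, 678 and 874 CPM (lowest, median and highest) before treatment. It stood at 43.8, 43.7 and 257 CPM in the JAK1i libraries 1, 2 and 3, at 699.9, 818 and 720 in JAK2i and at 370.3, 299.5 and 235 in JAK3i. In ruxolitinib it stood at 359, 448 and 514 CPM, and in tofacitinib at 477, 428 and 530.2. All JAK1i, JAK3i, ruxolitinib and tofacitinib libraries thus lay below every vehicle library. Of all genes, 35.1%, 36.3%, 35.6% and 34.9% were likewise lower without overlap in JAK1i, JAK3i, ruxolitinib and tofacitinib. These shares are to be read beside the same statement for other members. JAK1i replicates 1 and 2 lay far below all others, and JAK1i replicate 3 lay within the range of JAK3i. H2-Aa fell by 2.56 ± 0.45 on the log2 scale (SE; 5.88-fold) in JAK1i (edgeR adjusted p = 5.14e-05) and by 1.16 ± 0.43 (2.24-fold) in JAK3i (edgeR adjusted p = 0.0227). The JAK3i call was lost without JAK3i replicate 3 (log2 fold change −1.01, edgeR adjusted p = 0.0844) or without vehicle replicate 3 (−1.09, adjusted p = 0.0551). In ruxolitinib and tofacitinib the log2 fold changes of −0.62 (95% interval −1.50 to 0.27) and −0.50 (−1.38 to 0.39) did not pass the test.

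H2-Ab1, the β chain of I-A, moved with H2-Aa. It stood at 583, 554 and 663 CPM in vehicle, at 41.6, 35.5 and 217 in JAK1i and at 272, 213 and 159.7 in JAK3i. Ruxolitinib gave 296, 363 and 417 CPM, and tofacitinib 364, 337 and 396. H2-Ab1 fell 6.12-fold in JAK1i (log2 fold change −2.61 ± 0.44, edgeR adjusted p = 3.6e-05) and 2.79-fold in JAK3i (−1.48 ± 0.43, adjusted p = 0.00488). Its changes of −0.74 and −0.71 on the log2 scale in ruxolitinib and tofacitinib did not pass the test. No library of these groups overlapped vehicle, and 35.6% and 34.9% of all genes were lower without overlap.

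H2-Eb1, the β chain of I-E, was the classical chain in which JAK1i and JAK3i gave the closest fold changes. It stood at 672, 651.5 and 803 CPM in vehicle, at 43.5, 52.5 and 318 in JAK1i, and at 197, 172.5 and 143 in JAK3i. In ruxolitinib it stood at 433, 535 and 618 CPM and in tofacitinib at 529, 492 and 579.7, so that again no library of these groups reached the lowest vehicle library. JAK2i, at 704, 882 and 748 CPM, overlapped vehicle. H2-Eb1 fell 5.14-fold in JAK1i (log2 fold change −2.36 ± 0.47, edgeR adjusted p = 0.000213) and 4.15-fold in JAK3i (−2.05 ± 0.47, adjusted p = 0.000734), while −0.42 and −0.41 in ruxolitinib and tofacitinib did not pass.

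**Figure D1:**
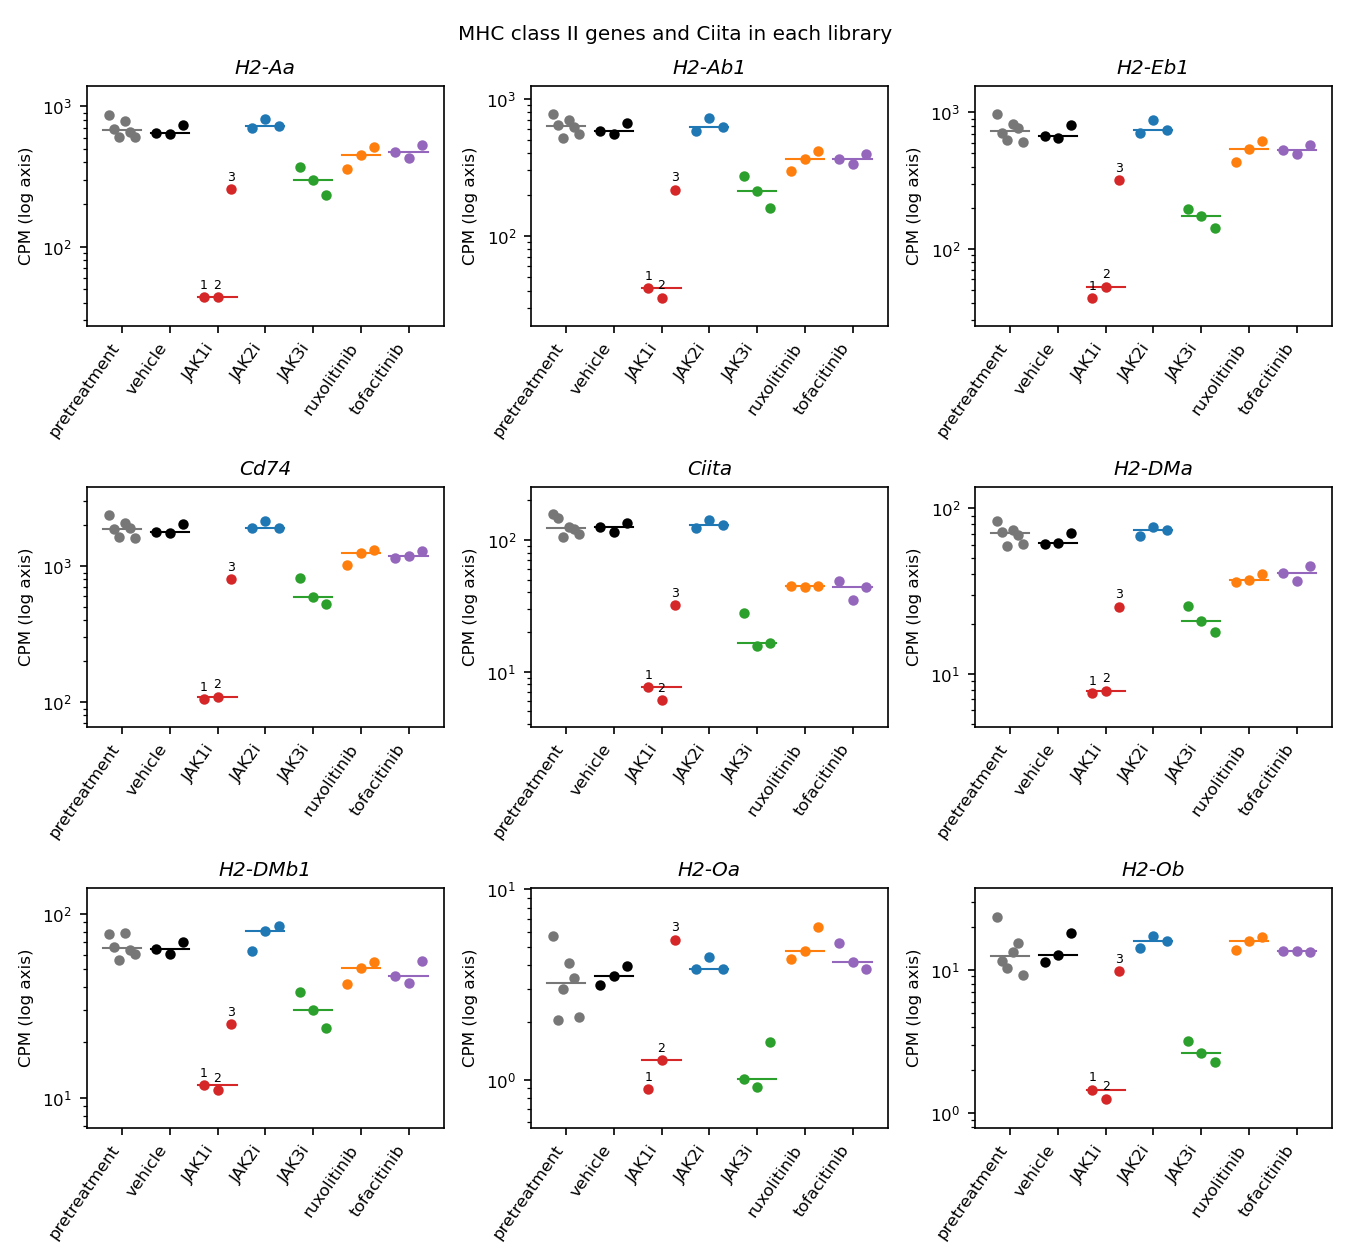
Level of each of the 9 members in CPM (read counts scaled to the library size, log axis) in each of the 24 libraries, by group. Each dot is 1 library, the line is the group's median and the JAK1i libraries are numbered by replicate; for H2-Aa, JAK1i replicates 1 and 2 lie at 43.8 and 43.7 CPM and replicate 3 at 257.

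Cd74, the invariant chain and the most highly expressed member, was lower in JAK1i and JAK3i. Its level was 1776, 1763 and 2043 CPM in vehicle and 1605 to 2393 CPM before treatment. In JAK1i it was 106, 110.1 and 801 CPM, and in JAK3i 821, 592 and 532.5. It was 1019, 1246 and 1328 CPM in ruxolitinib, 1151, 1194 and 1292 in tofacitinib and 1907, 2138 and 1921 in JAK2i. Only JAK2i overlapped vehicle, and JAK1i replicate 3 exceeded JAK3i replicates 2 and 3. Cd74 fell 5.49-fold in JAK1i (log2 fold change −2.46 ± 0.50, edgeR adjusted p = 0.000226) and 2.87-fold in JAK3i (−1.52 ± 0.48, adjusted p = 0.00914). Its log2 fold changes were −0.64 (95% interval −1.62 to 0.35) in ruxolitinib and −0.62 (−1.60 to 0.37) in tofacitinib, neither of them past the test.

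Ciita, the transactivator, was the member with the largest fold change in all 4 of these treatments, and the only one called in each. It stood at 126, 115 and 136 CPM in vehicle and at 106, 124 and 158 CPM (lowest, median and highest) before treatment. JAK1i gave 7.60, 6.10 and 31.9 CPM, JAK3i 27.7, 15.8 and 16.4, and JAK2i 123, 142 and 130.1. In ruxolitinib it stood at 44.4, 43.7 and 45.1 CPM, and in tofacitinib at 49.0, 34.9 and 44.1. JAK1i replicates 1 and 2 were lowest, JAK1i replicate 3 lay just above JAK3i, and ruxolitinib and tofacitinib lay between JAK1i replicate 3 and vehicle. Ciita fell 8.25-fold in JAK1i (log2 fold change −3.05 ± 0.40, edgeR adjusted p = 1.82e-06) and 6.28-fold in JAK3i (−2.65 ± 0.39, adjusted p = 7.32e-06). It fell 2.83-fold in ruxolitinib (−1.50 ± 0.37, edgeR adjusted p = 0.00237) and 2.94-fold in tofacitinib (−1.56 ± 0.37, adjusted p = 0.00167). In whole skin, fewer Ciita-expressing cells and less Ciita RNA per cell cannot be told apart, and the same holds for every member.

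The DM chains, which catalyse the exchange of the invariant chain's last fragment for peptide, fell less steeply than Ciita. H2-DMa stood at 60.6, 61.7 and 70.2 CPM in vehicle, at 7.66, 7.89 and 25.4 in JAK1i and at 25.7, 20.8 and 17.8 in JAK3i. Ruxolitinib gave 35.7, 37.0 and 39.9 CPM, tofacitinib 40.8, 36.3 and 44.6, and JAK2i 67.3, 77.2 and 74.0. Apart from JAK2i, all libraries lay below vehicle. H2-DMa fell 4.70-fold in JAK1i (log2 fold change −2.23 ± 0.30, edgeR adjusted p = 1.95e-06), 3.00-fold in JAK3i (−1.58 ± 0.29, adjusted p = 7.41e-05) and 1.71-fold in ruxolitinib (−0.77 ± 0.28, adjusted p = 0.0258). The ruxolitinib call was lost without vehicle replicate 3 or ruxolitinib replicate 1 or 2 (edgeR adjusted p = 0.0732, 0.0711 and 0.0651), and the −0.66 ± 0.28 of tofacitinib did not pass (adjusted p = 0.0517). H2-DMb1 stood at 64.3, 60.3 and 70.9 CPM in vehicle, at 11.7, 11.0 and 25.2 in JAK1i and at 37.4, 30.1 and 24.1 in JAK3i. It fell 4.08-fold in JAK1i (log2 fold change −2.03 ± 0.24, edgeR adjusted p = 5.87e-07) and 2.13-fold in JAK3i (−1.09 ± 0.23, adjusted p = 0.000403), while the −0.41 of ruxolitinib and −0.45 of tofacitinib did not pass.

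The DO chains, which restrain DM and are best known from B cells, behaved unlike the rest. H2-Ob stood at 11.3, 12.6 and 18.1 CPM in vehicle, at 1.45, 1.26 and 9.75 in JAK1i and at 3.16, 2.61 and 2.28 in JAK3i. It stood at 13.8, 15.9 and 17.0 CPM in ruxolitinib and at 13.5, 13.6 and 13.3 in tofacitinib, all within the vehicle range. H2-Ob fell 5.21-fold in JAK3i (log2 fold change −2.38 ± 0.50, edgeR adjusted p = 0.000348) and 3.38-fold in JAK1i (−1.76 ± 0.48, adjusted p = 0.00345). Without JAK1i replicate 3, H2-Ob fell 9.51-fold in JAK1i (−3.25, edgeR adjusted p = 1.08e-07), so the order of these inhibitors turned on that library. Its changes of 0.15 (95% interval −0.78 to 1.08) in ruxolitinib and −0.06 (−0.99 to 0.88) in tofacitinib did not pass. H2-Oa stood at 3.13, 3.53 and 3.96 CPM in vehicle, at 1.00, 0.920 and 1.57 in JAK3i and at 0.894, 1.26 and 5.43 in JAK1i, where replicate 3 was above all vehicle libraries and the others below. H2-Oa fell 3.02-fold in JAK3i (log2 fold change −1.60 ± 0.49, edgeR adjusted p = 0.00754). In JAK1i it did not pass with 3 libraries (−0.49, 95% interval −1.44 to 0.47) and did without replicate 3 (−1.59, adjusted p = 0.00107). In ruxolitinib H2-Oa stood at 4.29, 4.72 and 6.36 CPM, above every vehicle library (33.1% of all genes were higher without overlap), with a log2 fold change of 0.53 (−0.38 to 1.44) that did not pass.

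**Figure D2:**
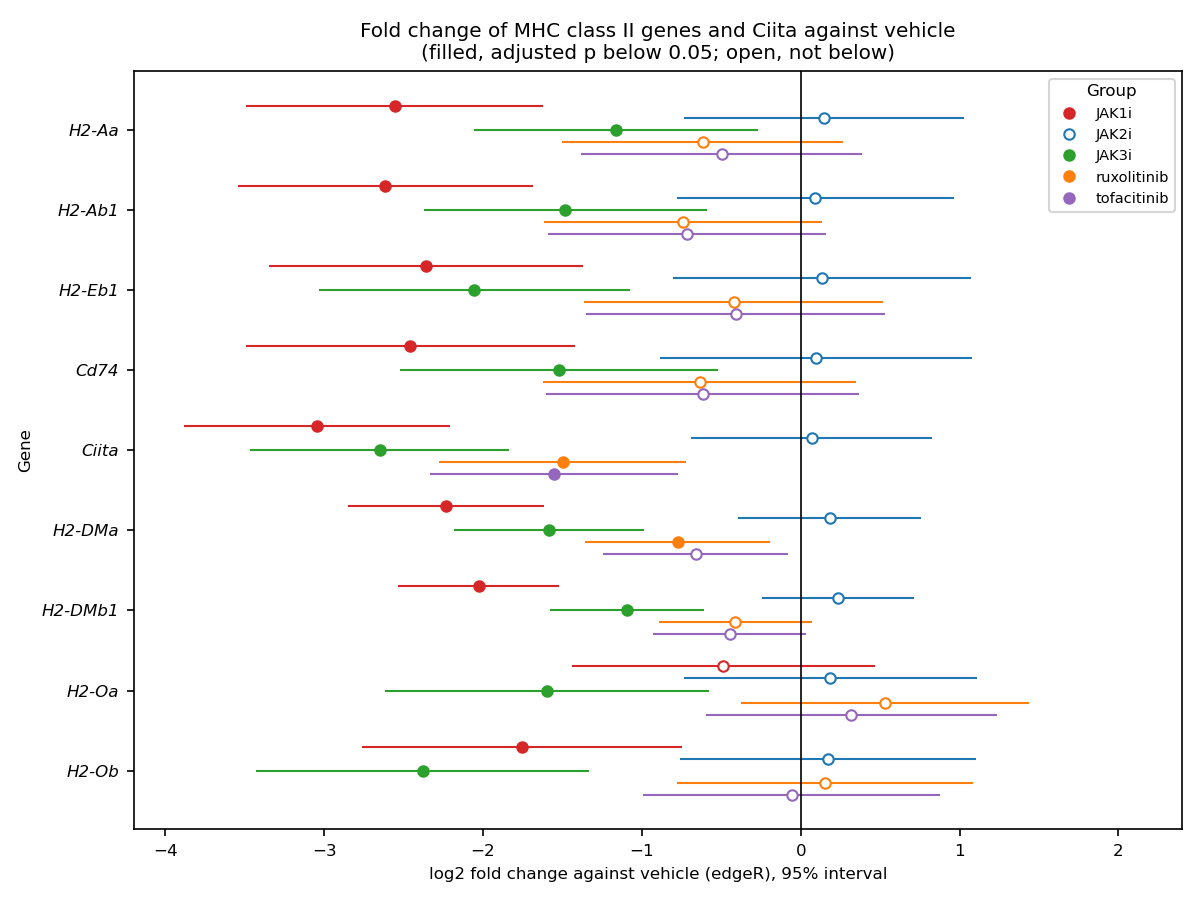
log2 fold change of each member against vehicle with its 95% interval (edgeR, 3 libraries per group), by inhibitor. Filled dots have an adjusted p below 0.05 and open dots do not; Ciita is filled for JAK1i, JAK3i, ruxolitinib and tofacitinib, at −3.05, −2.65, −1.50 and −1.56.

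Counted together, 8 of 9 members were called lower in JAK1i against vehicle, where 35.4% of all genes were called lower, and 9 of 9 in JAK3i, where 33.1% were. The median log2 fold change of the 9 was −2.36 in JAK1i, beside −0.06 over all genes, and −1.58 in JAK3i, beside 0.02. Libraries did not overlap with vehicle for 8 members in JAK1i (35.1% of all genes were lower without overlap) and for 9 in JAK3i (36.3%). Within JAK1i, however, the 3 libraries were far from alike. Replicates 1 and 2 held between 4.87% and 7.41% of the vehicle mean for the classical chains, Cd74 and Ciita, 11.9% and 12.3% for H2-DMa, 18% and 16.9% for H2-DMb1, 10.4% and 9.02% for H2-Ob, and 25.3% and 35.7% for H2-Oa. Replicate 3 held 25.5% for Ciita, 36.2% to 44.9% for the classical chains, Cd74 and the DM chains, 69.6% for H2-Ob and 154% for H2-Oa. It exceeded the mean of the other JAK1i libraries 2.22-fold for H2-DMb1 and 7.41-fold for Cd74, with the remaining members between these. Without replicate 3, all 9 members were called. Ciita fell 16.9-fold, Cd74 15.9-fold, H2-Ab1 14.4-fold, H2-Aa 14.3-fold and H2-Eb1 13.6-fold. H2-Ob fell 9.51-fold, H2-DMa 7.63-fold, H2-DMb1 5.30-fold and H2-Oa 3.01-fold. With only vehicle and JAK1i in the fit, so that this spread was not shared with other groups, 5 of 9 members were called lower (24.2% of genes).

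In ruxolitinib 2 of 9 members were called lower against vehicle (Ciita and H2-DMa; 27.2% of all genes), and in tofacitinib 1 of 9 (Ciita; 28.2%). The median log2 fold change of the 9 was −0.62 and −0.50, beside −0.01 over all genes in both. Yet 7 members lay below vehicle without overlap in each, where 35.6% and 34.9% of genes did, the exceptions being H2-Oa and H2-Ob. The calls changed with the spread that JAK1i replicate 3 added to the estimate shared by all groups. With that library left out, the biological coefficient of variation went from 0.359 to 0.139 for H2-Aa and from 0.395 to 0.132 for Cd74. Then 7 members were called lower in ruxolitinib (29.0% of genes) and 6 in tofacitinib (29.8%), where H2-Eb1 did not pass (log2 fold change −0.38, edgeR adjusted p = 0.0526). With vehicle and the inhibitor alone in the fit, 7 members were called lower in ruxolitinib (32.2%) and 7 in tofacitinib (28.9%), and H2-Oa was called higher in ruxolitinib (32.1% of genes were called higher).

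Against pretreatment, the counts of members called lower were 8 in JAK1i (38.2% of genes), 9 in JAK3i (35.0%), 2 in ruxolitinib (29.8%), 3 in tofacitinib (30.4%) and 0 in JAK2i (0%). Ciita fell by 3.08, 2.69, 1.54 and 1.59 on the log2 scale in JAK1i, JAK3i, ruxolitinib and tofacitinib. The call of H2-DMb1 in tofacitinib against pretreatment was lost when any of 5 libraries was left out (edgeR adjusted p = 0.0545 to 0.154), namely pretreatment replicates 1, 2 and 4 and tofacitinib replicates 1 and 2. That of H2-DMa was lost without tofacitinib replicate 2 (adjusted p = 0.0501). With JAK1i replicate 3 left out of the fit, 7 members were called lower in ruxolitinib (31.7% of genes) and 7 in tofacitinib (32.0%), and H2-Oa was called higher in ruxolitinib (31.2%).

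The inhibitors were then compared with each other in 4 pairs. By the study's methods, JAK3i was given at a lower dose per body weight than JAK1i, which the labels leave unsettled. JAK3i left 3 of 9 members higher than JAK1i did (21.0% of genes were called higher). These were H2-Aa by 1.39 on the log2 scale (edgeR adjusted p = 0.0134), H2-Ab1 by 1.13 (adjusted p = 0.0369) and H2-DMb1 by 0.94 (adjusted p = 0.00378). No member was called lower (21.9% of genes), and every member's libraries overlapped between the groups. The 95% intervals of Ciita (−0.41 to 1.20), H2-Eb1 (−0.64 to 1.25) and Cd74 (−0.05 to 1.93) held 0. This comparison turned on JAK1i replicate 3, without which 7 members were higher in JAK3i, among them H2-Aa by 2.68, Cd74 by 2.48 and Ciita by 1.43. Leaving out JAK1i replicate 1 or 2, or JAK3i replicate 1, ended the calls of H2-Aa and H2-Ab1, and H2-Ab1 was also lost without JAK3i replicate 2. Without JAK1i replicate 1 or 2, H2-Oa was called lower in JAK3i (log2 fold change −1.56 and −1.49). Fitted with these 2 groups alone, 0 members were called higher (9.47% of genes).

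JAK1i, by the study's methods again at the higher dose, gave lower levels than ruxolitinib for 8 of 9 members (17.4% of genes). The differences were 1.46 to 1.94 on the log2 scale, H2-Oa being the exception (−1.02, edgeR adjusted p = 0.0872). Without JAK1i replicate 3, H2-Oa was called as well (−2.15, adjusted p = 8.6e-05). With the 2 groups alone in the fit, 0 members and 0.0120% of genes were called lower. JAK3i against tofacitinib gave 6 members called lower (20.7% of genes), and all 9 were lower without overlap (25.2% of genes). The largest differences were in H2-Ob (−2.32), H2-Oa (−1.92) and H2-Eb1 (−1.65), and H2-Aa, H2-Ab1 and Cd74 did not pass (−0.66, −0.77 and −0.90). With the 2 groups alone in the fit (19.7% of genes), or with JAK1i replicate 3 left out of it (24.9%), these 3 passed as well and 9 of 9 members were called lower. Of these calls, Ciita, H2-DMa and H2-DMb1 were lost when 1 library was left out: Ciita without JAK3i replicate 2 or 3 or tofacitinib replicate 1 or 3, H2-DMb1 without any of the same 4 libraries, and H2-DMa without JAK3i replicate 3, which left 3 members at the fewest. Between tofacitinib and ruxolitinib no member was called (0.236% of genes lower and 0.135% higher): the differences ran from −0.21 to 0.12 on the log2 scale, with an interval of −0.83 to 0.71 for Ciita and of −0.76 to 1.00 for H2-Aa, and no member had an unadjusted p below 0.05.

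In these libraries the members did not move in proportion, as described by ratios of read counts within each library, apart from depth and scaling. No ratio passed its test, given below. H2-Eb1 was counted 1.02 to 1.09 times as often as H2-Aa in vehicle, 1.01 to 1.15 times before treatment and 0.532, 0.576 and 0.606 times (lowest, median and highest) in JAK3i. All 3 JAK3i libraries lay below every other library in the series in this ratio. The ratio of Ciita to H2-Aa was 0.180 to 0.194 in vehicle, 0.0527 to 0.0748 in JAK3i, 0.0877 to 0.124 in ruxolitinib, 0.0817 to 0.103 in tofacitinib and 0.124 to 0.174 in JAK1i. In JAK3i, ruxolitinib and tofacitinib it was below all pretreatment libraries (0.161 to 0.213). The ratio of H2-Ob to H2-Aa was 0.0153 to 0.0267 before treatment. It was lower in JAK3i (0.00855 to 0.00971) and higher in ruxolitinib (0.0331 to 0.0384) and JAK1i (0.0289 to 0.0380), with no overlap. H2-Oa to H2-Aa was 0.00296 to 0.00651 before treatment and 0.0204 to 0.0289 in JAK1i, the highest of all groups. It also lay above all pretreatment libraries in ruxolitinib (0.01055 to 0.01238) and tofacitinib (0.007212 to 0.011). These ratios were chosen after the values had been seen. In 40 two-sided exact permutation tests of 3 libraries against the 6 of pretreatment, the smallest p that this design allows, 0.0238, became 0.0529 after Benjamini-Hochberg adjustment, so that no ratio passed 0.05. At that smallest p, the mean log2 differences from pretreatment included −0.90 for H2-Eb1 to H2-Aa in JAK3i. For Ciita to H2-Aa they were −1.49, −0.84 and −1.04 in JAK3i, ruxolitinib and tofacitinib. For H2-Ob to H2-Aa they were −1.08, 0.91 and 0.805 in JAK3i, ruxolitinib and JAK1i. For H2-Oa to H2-Aa they were 2.35, 1.345 and 1.008 in JAK1i, ruxolitinib and tofacitinib. The other ratios at that p differed by less, the largest being −0.474 for H2-DMa to H2-Aa in JAK3i.

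**Figure D3:**
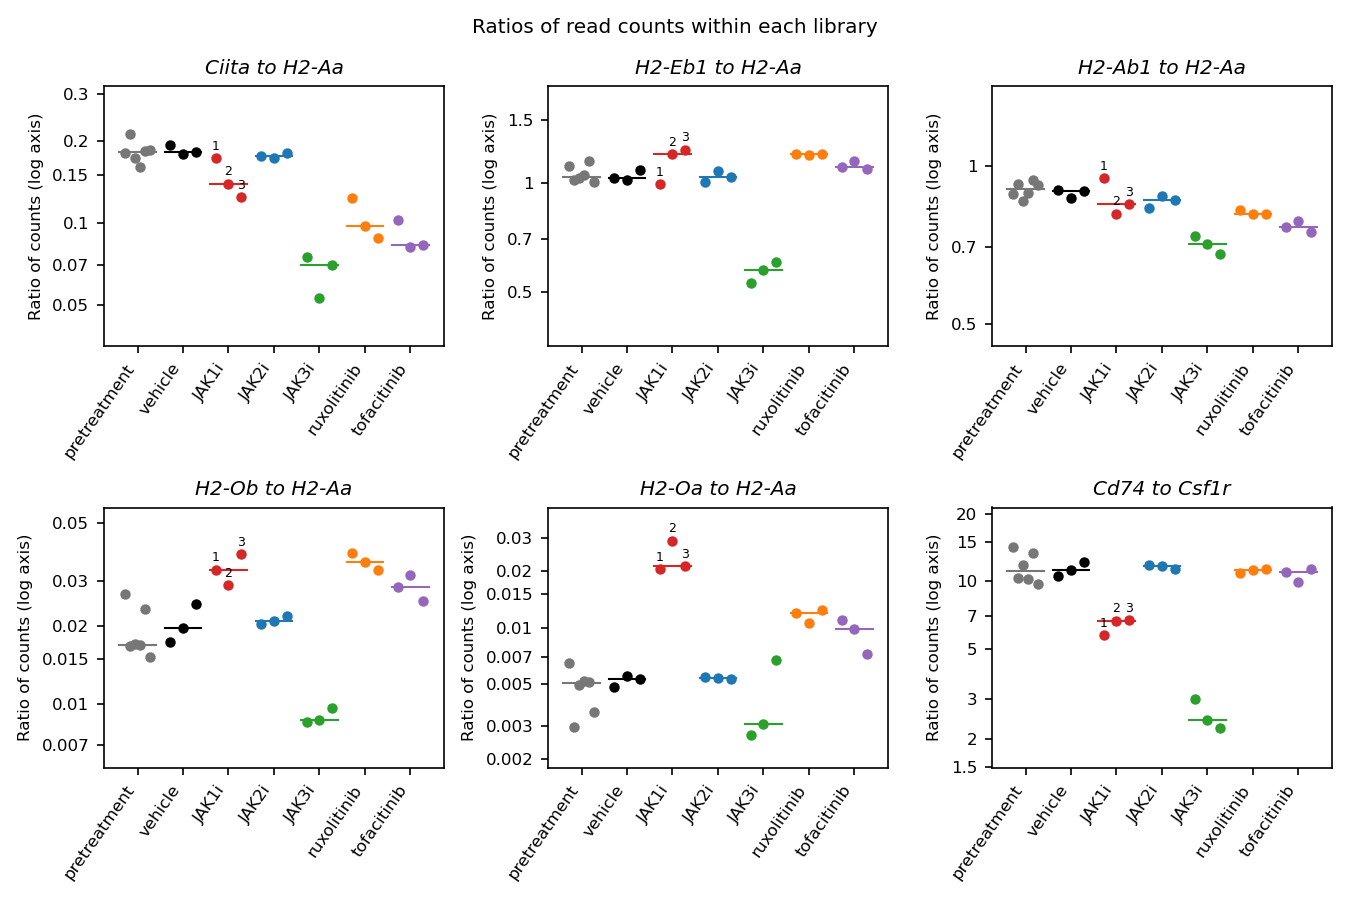
Ratios of read counts within each library (log axis), by group, for 5 pairs of members and for Cd74 to the macrophage receptor gene Csf1r. Each dot is 1 library, the line is the group's median and the JAK1i libraries are numbered; H2-Eb1 to H2-Aa is 0.532 to 0.606 in JAK3i and 1.02 to 1.09 in vehicle.

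The class II paralogs that are not among the 9 were each called lower in JAK1i and JAK3i. H2-Ea-ps, the α chain gene of I-E, which is a pseudogene in C57BL/6J, fell by 2.60 on the log2 scale in JAK1i (edgeR adjusted p = 0.000122) and by 1.33 in JAK3i (adjusted p = 0.0184), and did not pass in ruxolitinib (−0.68) or tofacitinib (−0.67). Its level in vehicle was 407.7 to 497 CPM. H2-DMb2, the second DM β chain, fell by 1.89 in JAK1i and by 1.57 in JAK3i. H2-Eb2, a further β chain gene, had only 13 to 26 reads per vehicle library and 2, 0 and 2 in JAK1i. It fell by 3.65 in JAK1i (edgeR adjusted p = 3.43e-05), by 2.12 in JAK3i (adjusted p = 0.000979) and 2.26-fold in tofacitinib (adjusted p = 0.0324).

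Most genes upstream of Ciita fell in all 4 of these treatments. Over all genes tested, 35.4%, 33.1%, 27.2% and 28.2% were called lower and 28.8%, 31.7%, 23.6% and 24.8% higher in JAK1i, JAK3i, ruxolitinib and tofacitinib against vehicle, and the counts of the lists are to be read beside these shares. Of 10 genes on the route from IFN-γ to Ciita, 8 were called lower in each of JAK1i, JAK3i, ruxolitinib and tofacitinib, with 1 called higher in the last 3 and 0 of 10 called in JAK2i. The list's median was −0.67, −0.61, −0.61 and −0.66 on the log2 scale, beside −0.06 to 0.02 over all genes. Ifng itself stood at 7.24 to 8.97 CPM in vehicle, 0 to 0.168 in JAK1i and 0.197 to 0.559 in the other 3 treatments. Irf1, which binds the Ciita promoter, fell by 2.25, 1.65, 1.59 and 1.40 on the log2 scale in JAK1i, JAK3i, ruxolitinib and tofacitinib. Socs1, an inhibitor of JAKs, fell by 2.66 in JAK1i and 2.46 in JAK3i. Of 8 promoter factors, 3 were called lower and 2 higher in JAK1i, 2 and 1 in JAK3i, and 1 and 2 in each of ruxolitinib and tofacitinib, which is near the shares over all genes. All of those named by rule moved by less than 1 on the log2 scale: in JAK1i, the NF-Y subunit gene Nfya changed by −0.64, Nfyb by 0.60, the RFX subunit gene Rfxap by 0.43 and Creb1 by −0.24.

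JAK3i parted from the other treatments in the proteases that cut the invariant chain. Of 7 processing genes, 7 were called lower in each of JAK1i, ruxolitinib and tofacitinib, whereas in JAK3i 2 were lower and 4 higher, with a list median of 0.54 on the log2 scale (33.1% of all genes were called lower and 31.7% higher). Ctss, which makes the last cut of the invariant chain in many antigen-presenting cells, fell by 3.76 in JAK1i, 2.12 in ruxolitinib and 2.04 in tofacitinib and rose by 1.27 in JAK3i (edgeR adjusted p = 0.00193). Lgmn, an asparagine endopeptidase, and Ctsb, a lysosomal cysteine protease, fell in JAK1i (by 1.27 and 1.47) and rose in JAK3i (by 1.87 and 1.48). Sppl2a, which removes the remaining membrane stub of CD74, fell by 0.80 in JAK1i and 1.04 in JAK3i. Of 4 genes that set class II at the cell surface, Marchf1, a ubiquitin ligase for class II, fell by 1.86 in JAK1i and changed by 0.33 in JAK3i without passing. Cd83, which opposes that ligase, fell by 1.05 in JAK1i and rose by 2.55 in JAK3i. Il10, whose product lowers surface class II, fell by 3.83 in JAK1i and fell by 1.84 in JAK3i. Costimulatory genes were called lower in 5 of 5 cases in JAK1i, 2 in JAK3i and 3 each in ruxolitinib and tofacitinib. Cd40 fell by 3.59 in JAK1i and fell by 2.31 in JAK3i, and Cd80 fell by 2.53 in JAK1i and changed by −0.13 in JAK3i without passing.

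Macrophage markers moved with the members in JAK1i and against them in JAK3i. Of 12 macrophage markers, 10 were called lower in JAK1i and 0 higher (35.4% and 28.8% of all genes), and 0 were lower and 8 higher in JAK3i (33.1% and 31.7%). Their summed level was 1085 to 1289 CPM in vehicle, 174, 183 and 785 CPM in JAK1i replicates 1, 2 and 3, 3165 to 3870 in JAK3i, 803 to 1014 in ruxolitinib and 892 to 1063 in tofacitinib. Cd68, a lysosomal protein of macrophages, rose by 3.32 on the log2 scale in JAK3i (edgeR adjusted p = 8.15e-09) and fell by 1.38 in JAK1i. C1qb, a complement subunit made by macrophages, rose by 1.54 and fell by 2.42 respectively. Set against Csf1r, the receptor gene of the macrophage lineage, chosen after its values had been seen, Cd74 was counted 10.6 to 12.2 times as often in vehicle, 5.77 to 6.73 times in JAK1i, 2.23 to 3.01 times in JAK3i, 10.9 to 11.4 times in ruxolitinib and 9.89 to 11.4 times in tofacitinib. Set against the sum of all 12 macrophage markers, Cd74 CPM gave ratios of 0.608, 0.602 and 1.02 in JAK1i replicates 1, 2 and 3, so that replicate 3 stood apart here, of 1.47 to 1.62 in vehicle and of 0.164 to 0.212 in JAK3i.

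Of 9 dendritic and Langerhans cell markers, 6 were called lower in JAK1i, 5 in JAK3i, and 4 lower and 1 higher in each of ruxolitinib and tofacitinib. Their summed level was 124 to 170.5 CPM in vehicle, 17.8, 18.5 and 68.2 in JAK1i, and 57.6 to 144 in JAK3i, which overlapped vehicle. Ccr7, the homing receptor of migratory dendritic cells, fell by 3.27 in JAK1i and 2.54 in JAK3i, and Xcr1, which marks cross-presenting dendritic cells, by 3.53 and 1.88. Itgax (CD11c) fell by 3.50 in JAK1i and changed by 0.10 in JAK3i without passing. Cd207, the langerin of Langerhans cells, looked at after its values had been seen, stood at 15.4 to 24.1 CPM in vehicle, 1.93 to 3.27 in JAK3i, 31.6 to 35.1 in ruxolitinib and 24.2 to 35.3 in tofacitinib, and at 3.80, 2.74 and 23.0 in JAK1i. H2-Ob and H2-Oa also stood below vehicle in JAK3i and not below it in ruxolitinib. In JAK1i replicate 3, Cd207 lay within the vehicle range, H2-Ob below it (9.75 CPM) and H2-Oa above it (5.43 CPM). In tofacitinib Cd207 lay above the vehicle range and H2-Ob within it. The median of the 9 dendritic and Langerhans cell markers in ruxolitinib was −0.98 on the log2 scale. A shared cell source was not tested. Of 10 B cell markers, 9 were tested; 7 were lower in JAK1i, 2 in JAK3i (with 2 higher) and 7 in each of ruxolitinib and tofacitinib (with 1 higher in each). Ms4a1 (CD20) was at 0 in JAK1i replicates 1 and 2 and ruxolitinib replicate 1, and Pax5, not tested, was at 0 in the same JAK1i libraries and in 1 library each of JAK3i, ruxolitinib and tofacitinib. The B cell sum was 14.0 to 17.3 CPM in vehicle, 2.00 to 9.58 in JAK1i, 29.3 to 57.5 in JAK3i, 9.28 to 11.35 in ruxolitinib and 6.86 to 13.9 in tofacitinib. In JAK3i that sum was carried by Cd22 and Cd79b, the markers called higher: the list median was −0.76 on the log2 scale, and the other 8 markers summed to 2.81 to 4.85 CPM, beside 6.71 to 8.37 in vehicle.

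T cell markers were called lower in 8 of 8 cases in JAK1i, 7 in JAK3i with 1 higher, and 7 each in ruxolitinib and tofacitinib. Their sum was 224.6 to 286.5 CPM in vehicle, 16.6 to 35.2 in JAK1i and 109 to 125 in JAK3i, where Cd4 made up most of it. Without Cd4 the other 7 markers summed to 217 to 279 CPM in vehicle, 12 to 30.8 in JAK1i and 13.9 to 19.2 in JAK3i. Cd8a fell by 7.68 in JAK1i and 5.02 in JAK3i. Cd4, the receptor that binds class II, fell by 0.55 in JAK1i and rose by 3.85 in JAK3i, from 5.91 to 7.82 CPM in vehicle to 90.2 to 111.5 CPM. Skeletal muscle genes took 0.735% to 0.991% of the counts in vehicle, 4.80% to 10.6% in JAK1i, 3.29% to 4.26% in JAK3i, 2.98% to 3.22% in ruxolitinib and 1.94% to 4.75% in tofacitinib, and 14, 13, 13 and 13 of 14 were called higher. Of 6 skin genes, 5, 4, 3 and 3 were called lower. JAK1i replicate 3, whose class II levels were highest in its group, also had the lowest muscle share (4.80%) and, for the collagen gene Col1a1, 786 CPM against 94.2 and 102 in replicates 1 and 2. The part of cell composition, muscle and biopsy depth in the class II values was not tested.

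**Figure D4:**
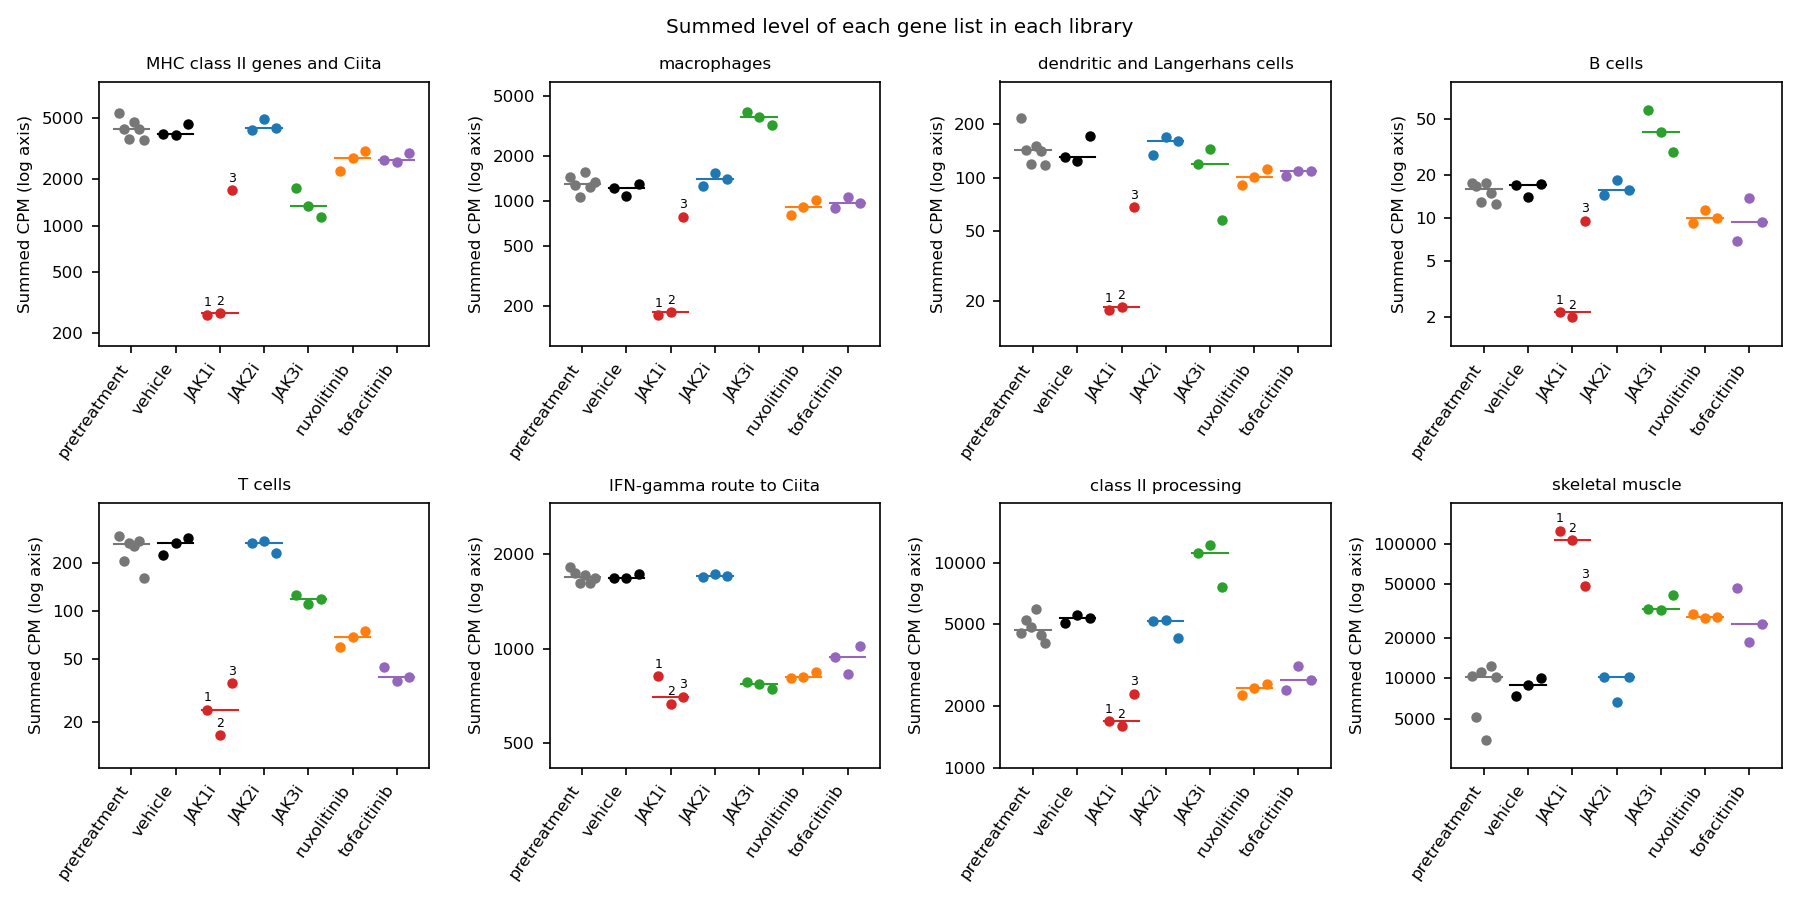
Summed CPM (log axis) of the 9 members and of 7 other gene lists in each library, by group. Each dot is 1 library, the line is the group's median and the JAK1i libraries are numbered; macrophage markers sum to 3165 to 3870 CPM in JAK3i, above all other groups, where the members sum to 1132 to 1755.

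Over the 24 libraries, the 7 members other than the DO chains followed each other closely. Pearson's r of log2 CPM was 0.915 to 0.996 over their 21 pairs. H2-Ob gave 0.844 to 0.953 with these 7, and H2-Oa 0.598 to 0.771. The genes outside the 9 with a pattern most like Ciita were Cd52, Stk17b, Klrk1, Spn and Cytip (r = 0.983, 0.983, 0.981, 0.979 and 0.979). Those most like the mean of H2-Aa, H2-Ab1 and H2-Eb1 were H2-Ea-ps, Alox5ap, H2-DMb2, Cd86 and Rgs14 (r = 0.995, 0.984, 0.983, 0.977 and 0.977). These are descriptions over 24 points that share libraries, groups and scaling, and the JAK1i libraries spread them most.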

How the data were processed

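RNA-Seq of skin was measured in 24 libraries of 7 groups. As deposited by the authors, the values are raw read counts per Entrez gene. The submitters' processing notes name Subread, DESeq2 1.18.1 and mm10 (GRCm38). The annotation, strand setting and aligner settings are not given in the sources used here. The second deposited table holds a cytotoxic T cell score made by the authors, with 7 genes, and was used only to check library names.

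The fit used edgeR 4.0.16 (R 4.3.3). A spreadsheet program had altered some names: 26 symbols had become dates and were restored by Entrez ID, and 855 rows had no symbol (at most 0.608% of a library). Genes were kept by filterByExpr (minimum count 10, minimum total 15), leaving 17770. After TMM scaling, all 24 libraries entered 1 quasi-likelihood model with a term for each of 7 groups (common biological coefficient of variation 0.17). P-values were adjusted over 17770 genes by the Benjamini-Hochberg method and called below 0.05. Log2 CPM used a prior count of 2. Levels per kilobase used GRCm38 transcript lengths. Ratios were tested in Python 3.11.15 with scipy 1.17.1 and plotted with matplotlib 3.10.9. The procedure was tested on simulated counts. Alternatives were other scalings and filters, DESeq2 1.42.0, the 2 groups alone, a replicate block, and leaving out each library.

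Members and gene lists were chosen with earlier results of these data known. Outside the 9 members and their 3 paralogs, the genes named were up to 4 per list with the smallest p-value among those called in JAK1i or JAK3i, defining markers at 0, and the 5 most alike to Ciita and to the classical chains. Csf1r, Cd207 and any other gene so described were chosen after their values were seen.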

Additional observations from a re-analysis of the deposited data

How the results depend on the processing

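The counts of members called lower against vehicle in JAK3i and JAK2i, and against pretreatment in JAK1i, JAK3i and JAK2i, moved by less than 1.5 times under all alternatives run. With only the groups compared in the fit, the counts called lower were 5 for JAK1i against vehicle, 7 for each of ruxolitinib and tofacitinib against vehicle, 7 for each of them against pretreatment 0 for JAK1i against ruxolitinib and 9 for JAK3i against tofacitinib, 1 member was called higher in ruxolitinib against vehicle, and 0 were called higher in JAK3i against JAK1i. With JAK1i replicate 3 left out of the spread, chosen after seeing the data, they were 7 and 6 for ruxolitinib and tofacitinib against vehicle 7 and 7 against pretreatment, and 9 for JAK3i against tofacitinib, with 1 higher in ruxolitinib against pretreatment. For ruxolitinib against vehicle, upper-quartile scaling gave 1, as did the 18 posttreatment libraries without a replicate block. RLE scaling and DESeq2 each gave 2 for tofacitinib against vehicle, and DESeq2 gave 4 for ruxolitinib against pretreatment and 1 lower for JAK3i against JAK1i. Leaving out 1 library gave 8 to 9 for JAK1i and for JAK3i against vehicle, 1 to 2 for ruxolitinib against vehicle, 2 to 3 for ruxolitinib and 1 to 3 for tofacitinib against pretreatment, 0 to 1 lower and 1 to 7 higher for JAK3i against JAK1i, 8 to 9 for JAK1i against ruxolitinib and 3 to 6 for JAK3i against tofacitinib. No called member changed direction. Same-numbered libraries of different groups, among the 18 posttreatment libraries, did not deviate together on average (mean r 0, and 4 of 45 pairs over 0.1). Their r ran from −0.173 to 0.29. The check gave no sign of pairing by number, but it cannot exclude a pairing with small effects. With the replicate block, H2-Aa in JAK3i against vehicle no longer passed (log2 fold change −1.11, edgeR adjusted p = 0.0531). Upper-quartile scaling moved the median of all genes by 0.097 to 0.14 on the log2 scale for JAK1i, JAK3i, ruxolitinib and tofacitinib against vehicle or pretreatment, and by at most 0.024 in either direction in the other comparisons. DESeq2 gave no adjusted p for Cd74 in any comparison, so its counts of members called leave Cd74 out. Depth limits H2-Oa (16 to 131 reads) most.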
